A study of Glycine max with 6 samples.

Results

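The genes described here were those detected only in phosphorus-starved soybean nodules. A gene was taken when its expression value was above 0 in all 3 low-phosphate (LP) libraries and it was not listed in any of the 3 high-phosphate (HP) libraries. Of 39712 genes listed in at least 1 library, 87 met this criterion, which is 0.219%. After Glyma.13G060200, Glyma.13G036300, Glyma.11G063400 and Glyma.19G206100 were left out, 83 genes remained. The mirrored criterion, all 3 HP libraries and no LP library, was met by 68 genes (0.171%). The values in the 6 libraries chose the genes, so their LP and HP values are given as a description, without a test.

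The LP nodules came from Glycine max genotype YC03-3 plants inoculated with rhizobium strain USDA110 and supplied with 25 μM KH2PO4. The HP nodules came from the same genotype and strain at 500 μM KH2PO4. These units are those of the methods, whereas the sample labels print the same numbers as mM. Each library held nodules over 3 mm from 2 plants pooled on day 25, so 3 LP and 3 HP replicates stand for 6 pools. Expression was measured by RNA-seq as FPKM, the fragments of a gene scaled to the length of its gene model and to the total number of assigned fragments. The totals behind the values were 17716117 to 18909026 fragments in the LP libraries and 17930721 to 18688901 in the HP libraries. The 4 leghemoglobin genes, whose products bind oxygen in infected nodule cells, lay between 11720 and 25710 FPKM over all 6 libraries.

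Plants short of phosphate switch on genes that save, release or import it, many of them through PHR transcription factors and SPX sensor proteins, and a number of these genes are almost silent when phosphate is ample. In nodules, where infected, uninfected, vascular and cortical cells are sequenced together, a transcript can appear because cells make more of it or because more cells make it. Fewer cells of a type and less RNA per cell cannot be told apart in these libraries. A gene absent from a library is also not shown to be silent, because a weakly transcribed gene can escape sampling.

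Most of the 83 genes were very weakly expressed at LP. The means over the 3 LP libraries ran from 0.0300 to 4.24 FPKM, with a median of 0.102 FPKM, against a median of 4.14 FPKM over the 35691 genes found in all 3 LP libraries. The median gene of the group stood at the 2.49th percentile of those 35691, and 1 of the 83 lay above their median. Means of at least 1 FPKM were found for 7 genes, means between 0.1 and 1 FPKM for 35, and lower means for 41. A minimum of 0.5 FPKM in at least 3 libraries, used below for testing other genes, was reached by 6 of the 83.

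Whole fragment numbers were recovered from the FPKM values, as the smallest numbers that give a whole gene-model length. Over the 3 LP libraries the 83 genes held 1947 fragments, or 0.00351% of the total. The median gene had 7 fragments. At least 10 fragments were found for 30 genes, 30 or more for 10 genes and 100 or more for 5 genes. In 47 genes at least 1 LP library held a single fragment, and 3 genes had 1 fragment in each LP library. An absence of HP fragments allows up to 3 fragments over the HP group, taken as a floor. The 95% counting interval of the LP fragments reached this floor in 43 of the 83 genes and lay above it in 40. These numbers describe values that chose the genes. Intervals and floors cover counting error only.

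The share of genes lost at HP depended on the fragments at LP. Among the 361 genes found in all 3 LP libraries with 3 to 5 fragments in sum, 26 were at 0 in every HP library, or 7.20%. For 6 to 9 fragments this held for 27 of 778 genes (3.47%), for 10 to 29 fragments for 20 of 2749 (0.728%), for 30 to 99 fragments for 6 of 4484 (0.134%), and for 100 or more for 8 of 27319 (0.0293%). These counts include the 4 genes left out above. Fragment numbers are smallest solutions, and a gene at 0 in 1 treatment is solved from fewer values, so its class may be too low. In the other direction, 35 of 325 HP genes with 3 to 5 fragments were at 0 at LP (10.8%), 19 of 722 with 6 to 9 and 14 of 2659 with 10 to 29. None of the 4181 HP genes with 30 to 99 fragments and none of the 27830 with 100 or more was at 0 in every LP library. As classed here, genes with 30 fragments or more in one treatment and 0 in the other were found at LP but not at HP. Below 10 fragments both directions were populated. After the 4 genes were left out, 10 LP genes had 30 fragments or more, and 5 of these had 100 or more. These values chose the genes, and genes at 0 in 1 treatment may be classed too low. The contrast is therefore a description and cannot decide whether the directions differ.

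**Figure D1:**
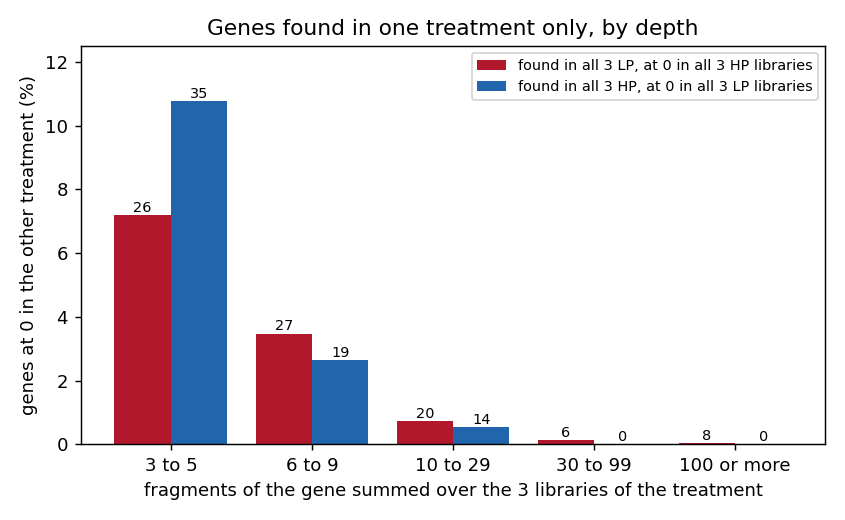
Genes present in every library of a treatment, grouped on the x axis by the sum of their fragments in that treatment. The y axis gives the percentage that was at 0 in all 3 libraries of the other treatment, with red bars for genes found at LP and blue bars for genes found at HP, and the number above each bar is the count of genes. The share falls from 7.20% to 0.0293% for genes found at LP, and no gene classed at 30 or more fragments at HP was at 0 at LP. The bars include the 4 genes left out of the group and are a description, because these values chose the genes.

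Glyma.20G192100 had the highest level of the 83 genes, and no description of it was at hand. It lies on chromosome 20 from 43072402 to 43078719 on the minus strand (Wm82.a2.v1) and had 4.01, 4.42 and 4.30 FPKM in LP replicates 1, 2 and 3, against 0 in each HP library. The LP values were close together (mean 4.24 ± 0.212 FPKM, SD, n = 3) and rested on 527 fragments (counting interval 483 to 574). Set against the floor of 3 fragments for HP as a whole, the level at LP was at least 174-fold higher. This and the folds given for the next genes take the LP count as measured, without its counting interval, and describe values that chose the genes. This gene alone held 27.1% of the fragments of the 83 genes. Its recovered gene model, the smallest that fits the values, is 2238 bases long within a span of 6318 bases. Most of the span is outside the model as recovered.

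Glyma.07G163300, matched to a protein without a known function, lies on chromosome 7 from 21628964 to 21629774 on the minus strand, and its recovered model of 811 bases fills the whole span. It had 3.27, 2.56 and 3.26 FPKM in the LP replicates, against 0 in each HP library, from 136 LP fragments (at least 44.8-fold higher). With a mean of 3.03 ± 0.408 FPKM (SD, n = 3) it was second to Glyma.20G192100, and the LP values of the 2 genes did not overlap.

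A histidine-containing phosphotransfer protein 4-like gene, Glyma.15G019500, followed. In Arabidopsis, proteins of this family relay phosphoryl groups from cytokinin receptor kinases to response regulators. It had 2.56, 2.19 and 1.28 FPKM in the LP replicates, against 0 in each HP library (mean 2.01 ± 0.658 FPKM at LP, SD, n = 3, 105 fragments, at least 34.6-fold higher). LP replicate 3 was lowest, at about the level of the genes ranked next.

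Glyma.17G103300 encodes a WEB family protein, At1g12150-like, of a coiled-coil family whose members act in chloroplast movement in Arabidopsis. Its values were 2.39, 0.929 and 1.60 FPKM in the LP replicates, against 0 in each HP library, from 170 LP fragments (at least 56.1-fold higher). LP replicate 1 was 2.57 times LP replicate 2, a wider spread than in Glyma.20G192100.

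Glyma.03G189900 is described as cytochrome P450 76A2-like, a member of the large family of heme monooxygenases of secondary metabolism. It had 1.49, 1.58 and 0.882 FPKM in the LP replicates, against 0 in each HP library, from 135 LP fragments (at least 44.5-fold higher). A gene of the same description outside the group, Glyma.10G296400, had 1.03, 1.68 and 1.697 FPKM in the LP replicates, against 0.529, 0.477 and 0.372 FPKM in the HP replicates. Its groups did not overlap and it passed the test described below, differing by 1.46 on the log2 scale (SE 0.28, limma adjusted p = 0.00911). It was singled out after its values were seen, and with 1 in place of 0.1 added before the logarithm it fell short of a 2-fold difference. Among the neighbours tested below, names were at hand only for genes that differed by about 0.88 or more in either direction (log2). A gene found through its name was therefore likely to pass, and this result is no separate evidence.

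The remaining genes above 1 FPKM have no known function at hand. Glyma.13G204600, matched to a hypothetical protein of Glycine soja, had 1.47, 0.971 and 1.52 FPKM in the LP replicates and 0 in each HP library. Glyma.07G061200, an uncharacterized protein gene whose recovered model of 1089 bases fills its span, had 1.87, 1.22 and 0.486 FPKM in the LP replicates and 0 in each HP library. These 2 genes had 56 and 71 LP fragments. LP replicate 1 of Glyma.07G061200 was 3.84 times LP replicate 3, and the means of the fifth to the seventh gene (1.32, 1.32 and 1.19 FPKM) lay within the spread of their replicates.

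The 3 other genes with a description lay below 1 FPKM. Glyma.05G108500 is NADPH-dependent 1-acyldihydroxyacetone phosphate reductase-like, and in yeast this enzyme makes lysophosphatidic acid, a precursor of phospholipids. It had 1.08, 0.680 and 0.483 FPKM in the LP replicates and 0 in each HP library, from 45 LP fragments. Glyma.03G252500, a GDSL esterase/lipase LTL1-like gene of a family of lipid and ester hydrolases, had 0.381, 0.229 and 0.584 FPKM in the LP replicates and 0 in each HP library, from 36 LP fragments. It was the only one of the 9 genes with a description whose product name held one of the terms phosphatase, phosphate transporter, SPX, nuclease, lipase or phospholipase. Glyma.17G027900 is MATE efflux family protein 5-like, of a family that exports organic compounds, and had 0.164, 0.464 and 0.333 FPKM in the LP replicates and 0 in each HP library, from 37 LP fragments. The order of the LP replicates thus differed among these 3 genes, with the highest value in replicate 1, 3 and 2 in turn. Another gene described as MATE efflux family protein 5-like, Glyma.15G150300, pointed the other way, with 0.188, 0.101 and 0.101 FPKM in the LP replicates against 1.13, 0.398 and 0.306 FPKM in the HP replicates. It was below the FPKM minimum and was not tested in the main fit, and without a minimum it did not pass.

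**Figure D2:**
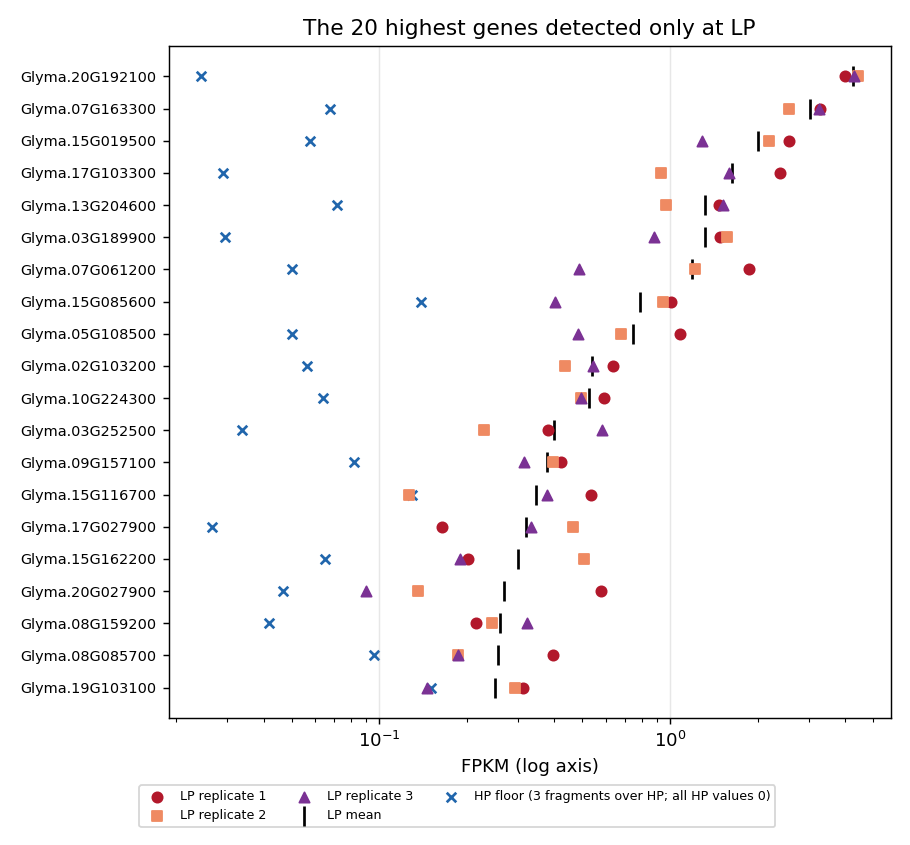
The 20 genes with the highest mean at LP, from Glyma.20G192100 at the top to Glyma.19G103100 at the bottom. Symbols give the FPKM of the 3 LP replicates and black ticks their mean, on a log x axis. Blue crosses mark the level that 3 fragments over the HP group would give, since every HP value is 0. The highest gene lies at 4.01 to 4.42 FPKM, far above its cross at 0.0245, whereas the lowest LP value of Glyma.15G116700 and of Glyma.19G103100 lies at about the cross of that gene.

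The other 10 of the 20 highest genes had no description at hand. Glyma.15G085600, a short gene with a model of 393 bases, had 1.01, 0.948 and 0.404 FPKM in the LP replicates and 0 in each HP library, which were 7, 7 and 3 fragments. Glyma.02G103200 had 0.638, 0.437 and 0.543 FPKM and Glyma.10G224300 had 0.592, 0.496 and 0.493 FPKM in the LP replicates, with 0 in each HP library for both. Those 2 genes varied little, with 29 and 25 LP fragments. Glyma.09G157100 had 0.421, 0.397 and 0.315 FPKM in the LP replicates and 0 in each HP library, and Glyma.08G159200 had 0.216, 0.244 and 0.323 FPKM with 0 in each HP library. Their coefficients of variation were 14.6% and 21.4%.

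Other genes of this rank were uneven or rested on few fragments. Glyma.20G027900 had 0.578, 0.136 and 0.0903 FPKM in the LP replicates, so that 12 of its 17 fragments came from replicate 1. Glyma.15G162200 had 0.202, 0.507 and 0.189 FPKM, with 8 of its 14 fragments in replicate 2. Glyma.15G116700 and Glyma.08G085700 had means of 0.346 and 0.257 FPKM from 8 fragments each, and Glyma.19G103100 had a mean of 0.250 FPKM from 5 fragments on a model of 363 bases. All of these had 0 in each HP library. A short recovered model thus carried a gene into the 20 highest with a handful of fragments. For Glyma.19G103100, whole multiples of the model length and of the fragments would also fit within its span of 3444 bases.

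The 63 genes ranked after these had means between 0.0300 and 0.243 FPKM and 3 to 21 fragments each, 473 in all. The 5 lowest were Glyma.06G103900, Glyma.10G161200, Glyma.09G103600, Glyma.08G138500 and Glyma.07G130700, with means of 0.0388, 0.0340, 0.0317, 0.0312 and 0.0300 FPKM at LP and 3 or 4 fragments each. Glyma.08G138500, with 1 fragment in each LP library, had 0.0325, 0.0307 and 0.0305 FPKM. The order of these 3 values follows from the library totals alone, since 1 fragment is worth most in the smallest library.

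Just outside the criterion, 200 genes were found in all 3 LP libraries and in 1 HP library. The highest of those with a single HP fragment was Glyma.20G129000 (GmSPX9, of the SPX sensor family), with 42.8, 43.3 and 37.0 FPKM in the LP replicates against 0, 0.0445 and 0 FPKM in the HP replicates. Next came Glyma.02G107900 (ribonuclease 1-like) with an LP mean of 10.7 FPKM, Glyma.15G085700 with 7.05, Glyma.06G276700 with 2.75 and Glyma.19G222500 with 2.27. All 5 had levels at LP like those of the 7 highest genes of the group or above them, and the first 3 exceeded Glyma.20G192100. On the other side, 193 genes were found in 2 LP libraries and no HP library, with a median of 3 fragments. The best covered of these was Glyma.16G128700, with 0, 0.276 and 0.470 FPKM in the LP replicates.

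The LP replicates did not contribute equally. Together the 83 genes held 705, 634 and 608 fragments in LP replicates 1, 2 and 3, although replicate 1 had the smallest total of the LP libraries. Among the 30 genes with at least 10 fragments, the highest FPKM fell in LP replicate 1 in 19, in replicate 2 in 7 and in replicate 3 in 4. Of the 18357 genes that were found in all 3 LP libraries and had 10 to 527 fragments, 47.3% were highest in replicate 1, 25.9% in replicate 2 and 26.8% in replicate 3, so replicate 1 led in general. The median coefficient of variation was 36.3% over the 30 genes (range 4.99% to 132%) and 20.7% over the 18357 genes. The 2 sets were not matched on the number of fragments within that range.

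Some genes rested largely on LP replicate 1. Glyma.15G242400 had 0.478, 0.0300 and 0.0597 FPKM in the LP replicates, with 83.3% of its 18 fragments in replicate 1. Glyma.01G221400 had 0.478, 0.0346 and 0.103 FPKM, with 76.5% of its 17 fragments there. With Glyma.20G027900 (70.6%) and Glyma.07G024700, which had 0.255, 0.0482 and 0.239 FPKM, these were the 4 of the 30 genes that differed by more than 5-fold between LP replicates. At the even end, 14 of the 30 differed by less than 2-fold, among them Glyma.20G154100 with 0.113, 0.0890 and 0.106 FPKM and Glyma.17G132100 with 0.0985, 0.116 and 0.0923 FPKM.

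**Figure D3:**
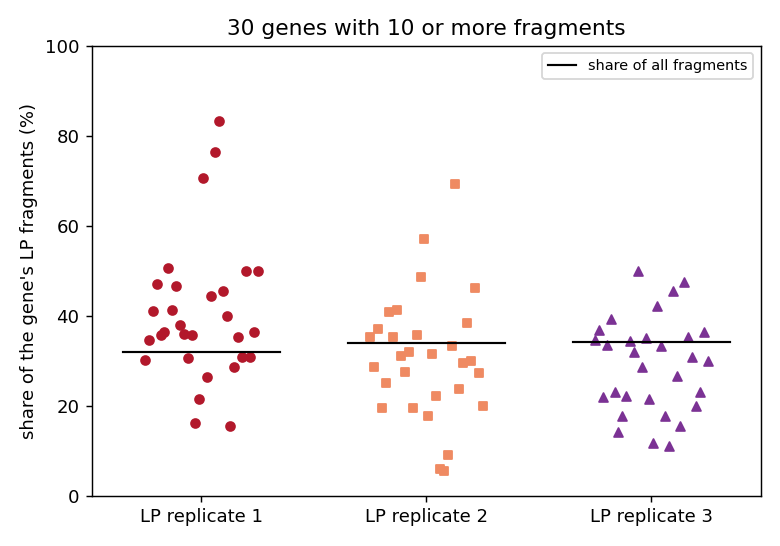
Share of each gene's LP fragments that came from LP replicate 1, 2 and 3, for the 30 genes with at least 10 fragments. Each point is 1 gene, the y axis is in percent, and black lines give the share of each replicate in all LP fragments (31.97% for replicate 1). In replicate 1 the points reach from 15.4% to 83.3%, and 3 genes lie above 70%.

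The 83 genes were spread over all 20 chromosomes, with 41 on the plus strand and 42 on the minus strand. Chromosome 7 held 8 of them, and chromosomes 3, 5 and 8 held 7 each, whereas chromosomes 16 and 19 held 1 each. Per 1000 listed genes this was 4.05 on chromosome 7, 3.82 on chromosome 5, 3.80 on chromosome 3 and 0.542 on chromosome 19, against 2.09 over all listed genes. With so few genes on a chromosome, these figures describe the list only. The median span was 2513 bases, against 3652 bases over all listed genes, and ran from 422 to 10174 bases. In 10 genes the recovered model filled the whole span, so that no intron lies within it.

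Genes of the group rarely lay side by side. In 2 places, 2 of them were next to each other with no listed gene between them. On chromosome 12, Glyma.12G069600 and Glyma.12G069800 are 8823 bases apart and had means of 0.0653 and 0.0866 FPKM at LP, from 4 and 6 fragments. On chromosome 14, Glyma.14G050900 and Glyma.14G051000 are 11642 bases apart and both had 5 fragments, with means of 0.0611 and 0.0651 FPKM. The next closest pair, Glyma.03G189900 and Glyma.03G192800, is 291750 bases apart with 20 listed genes between. One gene overlaps a listed gene: Glyma.12G098100 lies with all its 1035 bases inside Glyma.12G098000 on the same strand, and fragments of the 2 genes may have been exchanged. Glyma.12G098000 averaged 0.447 FPKM at LP and 0.383 FPKM at HP.

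The genes next to the group were compared between LP and HP, since their values had not entered the criterion. A two-sided limma test was run on log2(FPKM + 0.1) over 31181 genes that reached 0.5 FPKM in at least 3 of the 6 libraries. A gene was called if its Benjamini-Hochberg adjusted p was no more than 0.05 and the treatments differed by 2-fold or more. The nearest listed genes on both sides, other than members of the group, numbered 162, with a median gap of 7955 bases (5782 bases between successive listed genes in general). Of these, 130 could be tested, 13 were higher at LP, 10 were lower (7.69%) and 107 did not pass. Calls in either direction thus made up 17.7% of the neighbours. Over all genes tested, 3.34% were higher, 4.39% lower and 7.73% called in either direction. The median log2 fold change was -0.16 over the 130 neighbours and -0.18 over all genes. The neighbours were not tested as a set.

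The count of higher neighbours depended on the libraries and on the range. It was 7 without LP replicate 1 and 8 without LP replicate 2, where 726 and 730 genes were higher over all genes in place of 1041. The count of lower neighbours was 5 without HP replicate 1 and 6 without HP replicate 3, where 1001 and 1177 genes were lower over all genes in place of 1370. With 1 in place of 0.1 added before the logarithm, 8 neighbours were higher and 1 was lower, against 751 higher and 602 lower over all genes. After median-of-ratios scaling, 16 neighbours were higher and 4 lower, against 1419 higher and 669 lower over all genes. All 13 higher neighbours lay within 20 kb of the gene of the group, where 110 neighbours could be tested. Of the 10 lower neighbours, 7 lay within 20 kb, and the other 3 were among the 20 neighbours tested at larger gaps. Among all listed genes within 50 kb, 26 of 519 tested were higher (5.01%) and 32 were lower. For comparison, the nearest genes of the 1041 genes called higher in the whole data set were themselves higher in 7.38% of 1599 cases. The differences between these shares were not tested.

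**Figure D4:**
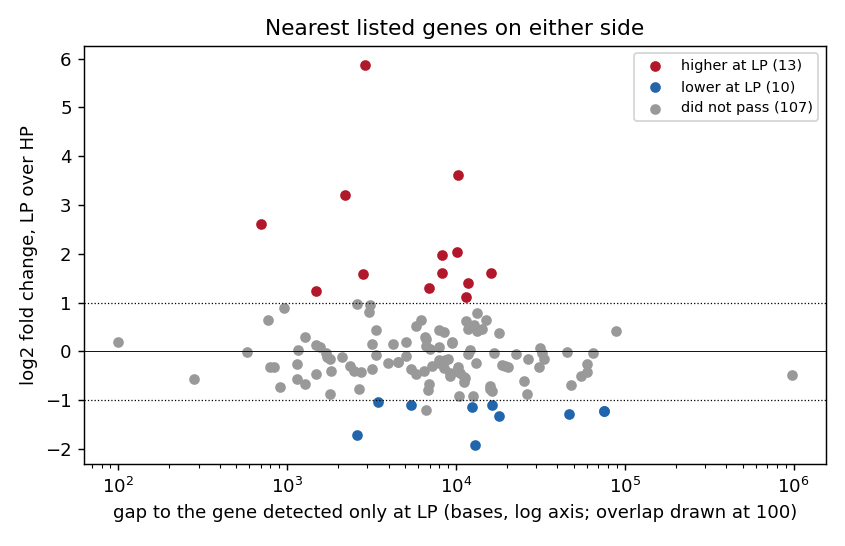
Nearest listed genes of the 83 genes. The x axis is the gap to the gene detected only at LP in bases (log axis, with the 1 overlapping gene drawn at 100), and the y axis is the log2 fold change of the neighbour, LP over HP. Each point is 1 of the 130 neighbours tested, red for the 13 that were higher at LP, blue for the 10 that were lower and grey for the 107 that did not pass. The red points reach 5.87 and all lie under 20 kb, as do 7 of the 10 blue points.

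The neighbour with the largest increase was Glyma.15G085700, which had no description at hand and lies 2894 bases after Glyma.15G085600 on the same strand. It had 7.23, 6.90 and 7.02 FPKM in the LP replicates, against 0, 0.0831 and 0 FPKM in the HP replicates. The groups did not overlap, and the difference was 5.87 on the log2 scale (SE 0.30, limma adjusted p = 2.28e-05). With 1 HP fragment in all, the size of this difference was set by the constant added before the logarithm, being 8.39 with 0.01 and 2.97 with 1, and it is no bound. It is also one of the 5 genes named above that had 1 fragment at HP, so that a gene with 1 HP fragment and a gene with none lie side by side. On the other side of Glyma.15G085600, 6914 bases away, Glyma.15G085500 had 3.85, 2.06 and 3.57 FPKM in the LP replicates against 1.99, 0.925 and 0.887 FPKM in the HP replicates (log2 fold change 1.30, standard error 0.35, adjusted p = 0.0331). This call was lost without HP replicate 2, HP replicate 3, LP replicate 1 or LP replicate 3 (adjusted p = 0.0888 to 0.0982 from limma).

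Another 3 neighbours rose strongly and kept their calls in every setting tried. Glyma.15G162000, a G-type lectin S-receptor-like kinase gene of a class that sits in the plasma membrane, lies 10366 bases before Glyma.15G162200. It had 6.24, 7.88 and 9.23 FPKM in the LP replicates, against 0.486, 0.452 and 0.709 FPKM in the HP replicates (log2 fold change 3.61, standard error 0.22, adjusted p = 6.32e-05 from limma). Glyma.08G138600, a sulfate transporter 2.1-like gene, lies 2207 bases after Glyma.08G138500 on the same strand. It had 15.2, 12.97 and 14.2 FPKM in the LP replicates, against 1.26, 2.03 and 1.16 FPKM in the HP replicates (log2 fold change 3.21, standard error 0.20). Glyma.08G138500 itself had 3 fragments over the LP libraries. Glyma.08G159100, matched to a hypothetical protein, lies 706 bases before Glyma.08G159200 on the other strand. It had 16.5, 17.1 and 17.1 FPKM in the LP replicates, against 2.45, 3.27 and 2.43 FPKM in the HP replicates (log2 fold change 2.61, standard error 0.14).

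In 2 places on chromosomes 1 and 11 the neighbour was a transcription factor gene described as bHLH25-like, of the basic helix-loop-helix class of DNA-binding proteins. Glyma.11G043700 lies 10116 bases after Glyma.11G043600 on the same strand and had 1.77, 2.48 and 1.56 FPKM in the LP replicates, against 0.657, 0.444 and 0.183 FPKM in the HP replicates (log2 fold change 2.04, standard error 0.39, adjusted p = 0.00869 from limma). Glyma.01G197900 lies 8262 bases before Glyma.01G198000 on the same strand and had 2.57, 2.80 and 2.19 FPKM in the LP replicates, against 1.30, 0.626 and 0.190 FPKM in the HP replicates (log2 fold change 1.97, standard error 0.52, adjusted p = 0.0305). The groups of neither gene overlapped. The call of Glyma.01G197900 was lost without HP replicate 2 or any of the 3 LP replicates (adjusted p = 0.0613 to 0.0943 from limma). The 2 genes detected only at LP beside them were weak. From 18 and 5 LP fragments, Glyma.01G198000 had 0.335, 0.158 and 0.236 FPKM in the LP replicates and Glyma.11G043600 had 0.0437, 0.0412 and 0.123 FPKM.

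Glyma.07G163300, the second highest gene of the group, was, with Glyma.15G085600, one of 2 whose neighbours on both sides were called higher. Glyma.07G163200, an extra-large guanine nucleotide-binding protein 1-like gene of G-protein signalling, lies 1481 bases away on the other strand. It had 3.81, 5.35 and 2.93 FPKM in the LP replicates, against 1.63, 2.12 and 1.18 FPKM in the HP replicates (log2 fold change 1.24, standard error 0.28, adjusted p = 0.016 from limma), which did not pass when LP replicate 2 was left out (0.0566). Glyma.07G163400, 16130 bases away, had 1.30, 0.646 and 1.07 FPKM in the LP replicates, against 0.148, 0.602 and 0.144 FPKM in the HP replicates (log2 fold change 1.61, adjusted p = 0.0428). Its call was lost without HP replicate 1, HP replicate 3 or any LP replicate (adjusted p = 0.0619 to 0.124 from limma). With 1 added before the logarithm, Glyma.07G163200, Glyma.07G163400 and Glyma.15G085500 differed by less than 2-fold. The other 4 higher neighbours had log2 fold changes between 1.12 and 1.59.

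The 10 lower neighbours had log2 fold changes between -1.93 and -1.03. Glyma.13G324700, a cytokinin riboside 5'-monophosphate phosphoribohydrolase LOG1-like gene, whose enzyme releases active cytokinin, lies 13032 bases after Glyma.13G324600. It had 0.195, 0.331 and 0.695 FPKM in the LP replicates, against 1.52, 1.97 and 1.56 FPKM in the HP replicates (log2 fold change -1.93, standard error 0.38, adjusted p = 0.00964 from limma). Glyma.09G103400, a 40S ribosomal protein S5-like gene, was the most abundant of the lower neighbours, with 47.4, 46.1 and 48.8 FPKM in the LP replicates against 105, 115 and 113 FPKM in the HP replicates (log2 fold change -1.22, standard error 0.09). It lies 75847 bases from Glyma.09G103600. Glyma.04G011500 and Glyma.10G161400 (serine/threonine-protein kinase Nek1-like) fell by 1.72 and 1.32 on the log2 scale. With 1 added before the logarithm, Glyma.13G324700, Glyma.04G011500 and Glyma.10G161400 had -0.94, -0.66 and -0.75, short of 2-fold. Glyma.05G100900 and Glyma.06G206800 (WD repeat and HMG-box DNA-binding protein 1-like) had log2 fold changes of -1.28 and -1.23, and both calls were lost under both rescalings and without LP replicate 1 or LP replicate 3 (adjusted p = 0.0538 to 0.0892 from limma). That of Glyma.05G100900 was also lost without each HP replicate (0.0892, 0.0946 and 0.11), and that of Glyma.06G206800 without LP replicate 2 (0.0645). Both differed by less than 2-fold with 1 added before the logarithm, and Glyma.05G100900 also missed the threshold without an FPKM minimum (0.0507) and without the trend and robust options of limma (0.0542). With an HP replicate left out, Glyma.06G206800 and Glyma.04G011500 did not reach the FPKM minimum, so neither call could be tested there.

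Close neighbours that did not pass had, with 1 exception in each direction, a difference of under 2-fold in every setting tried. Counting gaps of up to 2000 bases and the overlap, 25 neighbours lay this close, of which 2 were higher (Glyma.08G159100 and Glyma.07G163200), 21 did not pass and 2 were below the FPKM minimum. Glyma.20G191900, 1156 bases from Glyma.20G192100 on the other strand, averaged 4.06 FPKM at LP and 4.84 FPKM at HP, which is -0.26 on the log2 scale (SE 0.15, limma adjusted p = 0.252). On this side, the most strongly expressed gene of the group lay beside a gene of similar level at LP that did not pass the test. On the other side, 18081 bases away, Glyma.20G192300 averaged 36.8 FPKM at LP and 28.4 FPKM at HP. Its log2 fold change of 0.37 (standard error 0.09, limma adjusted p = 0.0182) missed only the 2-fold threshold. Glyma.15G019600, 1285 bases from the phosphotransfer gene Glyma.15G019500, had a log2 fold change of -0.66 (standard error 0.17, limma adjusted p = 0.0256). It missed only the 2-fold threshold. Glyma.07G019100, a malonate--CoA ligase-like gene 958 bases from Glyma.07G019200, averaged 52.2 FPKM at LP and 27.7 FPKM at HP. Its log2 fold change was 0.88 (limma adjusted p = 0.00955), short only of 2-fold, and reached 1.06 after median-of-ratios scaling. Glyma.11G067500, 1813 bases from Glyma.11G067400, had a log2 fold change of -0.88, which was -1.19 and passed without HP replicate 2.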

How the data were processed

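Oligo(dT)-selected nodule RNA of 3 LP and 3 HP pools was sequenced in pairs of reads. The authors removed low-quality reads, built the index with Bowtie2 2.2.3, aligned to Glycine max Williams82.a2.v1 with HISAT2 2.1.0, estimated abundance with Cufflinks and deposited FPKM values above 0, one file per replicate.

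Files were joined by gene ID, and unlisted genes were set to 0. Each library's total was recovered as the common divisor of the inverse FPKM values. Fragments were then the smallest whole numbers (tolerance 1e-05) at a whole model length, and they summed to 99.65% to 99.68% of the totals. They may be a whole fraction of the true numbers. Testing used limma 3.58.1 in R 4.3.3 (eBayes with trend and robust, Benjamini-Hochberg). The fitted differences had a median standard error of 0.166, and replicates a median SD of 0.202, both log2. The fit was also run on simulated data as a check of the code, and no result given here rests on it. Counts were summarised with Python 3.11.15.

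The genes and lists were chosen with earlier results of these data known. Named were the 20 highest and 5 lowest genes, those next to each other, any with a product name of phosphate release or lipid cleavage, the 5 highest genes with 1 HP fragment, the 6 largest called neighbours in each direction and neighbours within 2000 bases. Other named genes were chosen after their values were seen. Names come from the study's supplementary list, of which a part was at hand. Promoter and protein sequences were not used here, and no gene was assigned to the endodermis or green tissue lists. The replicates are separate pools of 2 plants.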

Additional observations from a re-analysis of the deposited data

How the results depend on the processing

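The number of genes detected only at LP depended on depth and on the number of libraries. With at least 0.1 FPKM in all 3 LP libraries it was 23 in place of 83, with at least 0.5 FPKM 6, and with at least 10 fragments, a limit chosen after seeing the data, 30. With one library left out, which loosens the criterion, it was 140 to 157. Taking HP values up to 0.02 FPKM as 0 gave 96.

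Adding 1 in place of 0.1 left 8 neighbours higher and 1 lower, and 751 genes higher and 602 lower over all genes. Median-of-ratios scaling gave 4 lower neighbours and 669 lower genes, and quantile normalization 4 and 806. The share of higher calls over all genes was then above that of lower calls, in reverse of the values as deposited (1041 higher and 1370 lower). With the adjusted p alone, 26 neighbours were higher and 31 lower, and 2110 and 5894 genes over all. Within 50 kb, 26 genes were higher and 32 lower. Beside genes with at least 10 fragments, also chosen later, 8 of 46 neighbours were higher and 2 lower. With one library left out, 7 to 12 neighbours were higher and 5 to 8 lower, and over all genes 726 to 1146 were higher and 1001 to 1442 lower. Of the 15 called neighbours named by the rule or in the text, 5 kept the call in every setting and could be tested in all. Glyma.15G085700 kept it in all 11 settings where it could be tested, which were those with all LP libraries.

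With the replicate number as a block, 12 neighbours were higher and 7 lower, and 1046 and 1288 genes over all. Among the named neighbours, Glyma.07G163400 (limma adjusted p = 0.082), Glyma.05G100900 (0.0562) and Glyma.06G206800 (0.0719) did not pass with the block. The numbers do not pair the samples. Deviations of same-numbered LP and HP libraries correlated with Pearson r of 0.17, -0.02 and -0.153 across genes, and LP replicate 2 correlated best with HP replicate 3 (0.138). The comparison of closest paralogs and of promoter motifs was not run, as no protein or promoter sequences were used here. Median-of-ratios scaling, added later for the levels, moved the LP mean of Glyma.20G192100 to 4.51 FPKM. Depth limits every statement on genes under about 10 fragments.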
